A study of Mus musculus with 6 samples.

Results

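The 10 genes described here encode a part of the interleukin 6 (IL-6) family and of the STAT3 pathway that its receptors drive. They were picked by name as parts of this pathway, with earlier results of these data known but with no measured value in the rule, from the 34685 genes that carry a symbol in the deposited tables, and all 10 were found. They fall into 3 ligands (Il6, Osm and Lif), 3 receptor chains (Il6ra, Il6st and Osmr), the kinase Jak2, the transcription factor Stat3, and 2 feedback inhibitors (Socs3 and Cish). All 10 passed the filter on low counts.

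IL-6 family cytokines signal through receptor complexes that share gp130, the signaling chain encoded by Il6st. Receptor-bound JAK kinases phosphorylate STAT3, which enters the nucleus and switches on target genes, among them Socs3, whose protein shuts the receptor down. In the liver this pathway drives the acute phase response of hepatocytes, and in hepatocellular carcinoma (HCC) it is known for ties to inflammation and tumor growth.

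Tumor RNA was sequenced from 3 libraries labelled as untreated controls (numbers 5, 6 and 7) and 3 labelled as treated with nanoparticles loaded with GOX and DOX (numbers 1, 2 and 5), named GOx-DOX-LGP and called treated below. GOx is glucose oxidase, an enzyme that consumes glucose, DOX is doxorubicin, a chemotherapeutic that damages DNA, and LGP is the lipid-gelatin-protamine nanogel that carries them. For all tumors, 1000000 cells of the mouse HCC line HCA-1 were placed under the liver capsule of male C3H mice (C3H/HeNCrNarl in the study's methods) aged 6 to 8 weeks. The labels put intravenous dosing on days 18, 19 and 20 but the analysis of transcripts on day 17, with 3 h of circulation, so the time between the last dose and harvest is uncertain. For a PCR experiment with the same dosing days, the study's methods place harvest on the day after the last dose, and whether the sequenced tumors were taken then is not stated. No library received an empty nanogel or a single agent, so carrier, GOx and DOX cannot be told apart.

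Raw counts summed to between 15529940 and 18401178 per library. Levels are given as CPM, counts scaled to a library size of 1000000 after TMM normalization. Control 5 stood apart from the other controls. The summed level of 12 hepatocyte genes, such as Alb, was 637 CPM in control 5, 121239 CPM in control 6 and 205217 CPM in control 7, and between 1323 and 3383 CPM in the treated tumors. Of 5 HCC markers, Krt8 was at 313 CPM or more in every library. Gpc3 was at 2.29 CPM or less and Afp at 13.2 CPM or less. The log2 fold change (treated over control) was positive for 3 of the 5 and negative for 2. In such bulk samples, fewer cells of a type and less RNA per cell cannot be told apart. The study's n for this profiling equals the number of libraries per group, but neither it nor the labels say that each library came from a separate mouse, so p-values measure only the spread between these libraries, which may be technical.

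Among the members, Osm and Socs3 were higher in every treated tumor than in every control, and Il6st was lower in every one. The levels of Stat3 itself and of Jak2 overlapped between the groups. Il6, Lif and Cish were as high in control 5 as in treated tumors, and low in controls 6 and 7. With edgeR's quasi-likelihood test, 0 of the 10 members passed an adjusted p of 0.05, as did 0 of all 15374 genes tested (0%). At an unadjusted threshold of 0.05 there was 1 member, Osm, with a higher level (2.87% of all genes), 0 with a lower level (14.6%), and 17.5% of all genes in either direction. DESeq2 called 1 of the 8 members it gave an adjusted p for, again Osm, beside 10.2% of all genes, of which 0.933% were higher and 9.27% lower, and limma voom called 0. The groups did not overlap for 2 members with higher levels (Osm and Socs3, 8.87% of all genes) and 1 with lower levels (Il6st, 8.31%), where 17.2% of all genes showed either. These shares rest on 10 genes and were read as a description.

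**Figure D1:**
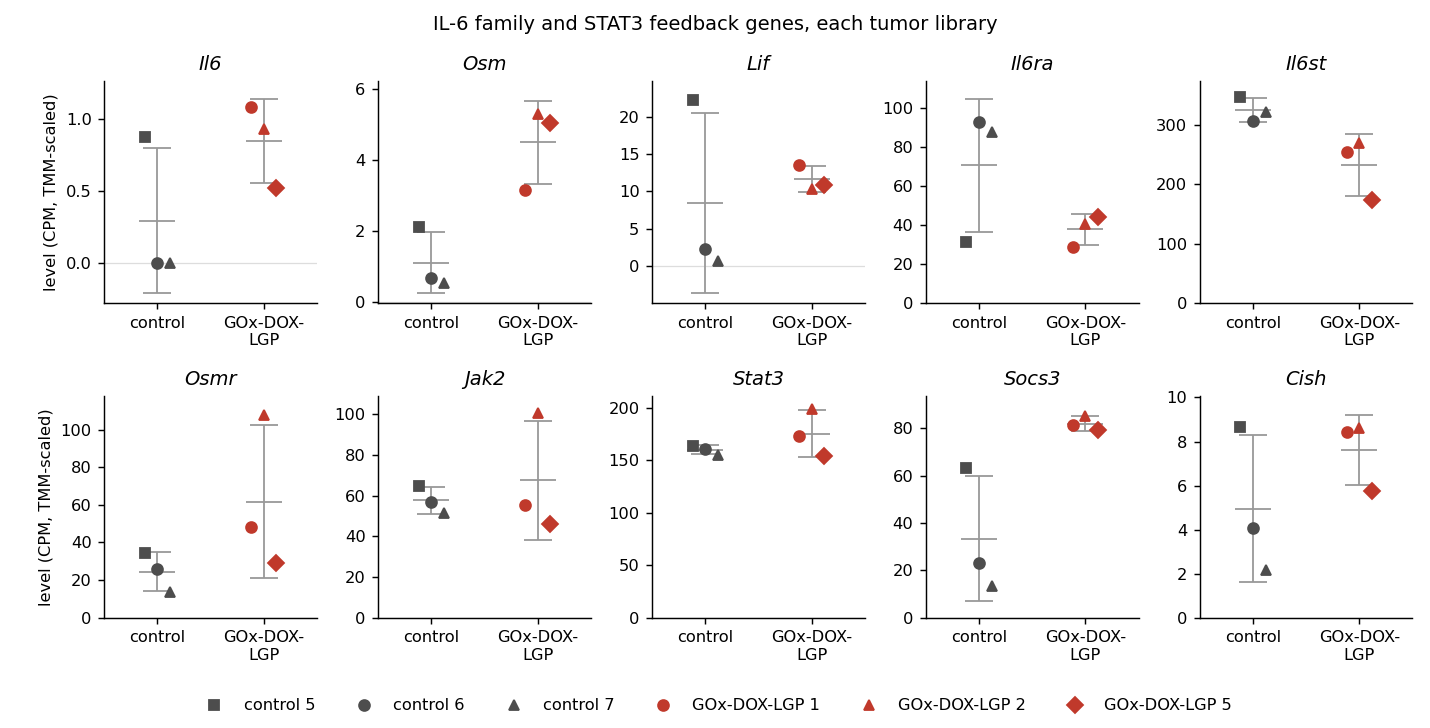
Level of each member in CPM (linear axes, 1 panel a gene) in 3 control libraries (gray) and 3 GOx-DOX-LGP libraries (red), with the group mean and SD as gray bars. Socs3 lies between 79.2 and 85.4 CPM in treated tumors, above all controls, whereas Lif is highest in control 5 at 22.3 CPM.

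Osm (ENSMUSG00000058755) encodes oncostatin M, a ligand made mainly by leukocytes, and lies on chromosome 11 of GRCm38 from 4236420 to 4241026. It measured 2.11, 0.678 and 0.538 CPM (controls 5, 6 and 7) against 3.16, 5.29 and 5.05 CPM (treated tumors 1, 2 and 5). These levels rest on 48, 8 and 5 counts and on 64, 108 and 97 counts. The groups did not overlap, and the group means were 1.11 ± 0.867 CPM (SD, n = 3) and 4.50 ± 1.16 CPM (SD, n = 3). This gave a log2 fold change (treated over control) of 1.96, with a standard error of 0.59 and adjusted p of 0.247 in edgeR and 0.0228 in DESeq2. The two-sided exact permutation test gave p = 0.1, the smallest value that 3 libraries against 3 allow. Over all alternatives the log2 fold change stayed between 1.45 and 2.86, and its adjusted p, from the tool of each alternative, between 0.00281 (edgeR, without control 5) and 0.603.

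Markers of leukocytes are given beside Osm. Beside the counts without overlap below, 8.87% of all genes were without overlap and higher in treated tumors. Summed T cell markers were between 25.5 and 74.3 CPM in controls and between 103 and 148 CPM in treated tumors. Of these genes, 6 of 6 had a positive log2 fold change and 5 of 6 were without overlap. Summed macrophage markers ranged from 508 to 852 CPM and from 798 to 1917 CPM, with 7 of 7 genes positive and 2 without overlap. Summed neutrophil markers ranged from 7.96 to 22.7 CPM and from 15.6 to 54.5 CPM, with 4 of 6 genes kept by the filter, 4 of these positive and 0 without overlap. Ly6g, a defining neutrophil marker, had 0 counts in control 6 and was at most 0.364 CPM elsewhere. The part of these cells in the level of Osm was not tested.

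Il6 (chromosome 5, 30013114 to 30019981) was close to the detection limit. It had 20 counts in control 5, 0 counts in controls 6 and 7, and 22, 19 and 10 counts in treated tumors 1, 2 and 5. A count of 0 allows a level of up to 0.254 CPM in control 6 and 0.323 CPM in control 7, taking 3 counts per library as the limit, which covers counting error only. Control 5 at 0.877 CPM lay within the treated range of 0.520 to 1.09 CPM, so that the groups overlapped. The log2 fold change of 1.24 had a standard error of 1.15.

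Lif (chromosome 11, 4257557 to 4272514), which encodes leukemia inhibitory factor, spread widely among controls. It measured 22.3, 2.29 and 0.646 CPM (controls 5, 6 and 7) against 13.6, 10.3 and 10.9 CPM (treated tumors 1, 2 and 5). Control 5 was thus above every treated tumor, and controls 6 and 7 were below every one. Its log2 fold change of 0.44 had a standard error of 1.12 (edgeR, adjusted p = 0.823). It was 2.94 without control 5 and -0.09 without control 7, so that its direction depended on which controls entered. Summed fibroblast markers ranged from 1425 to 5737 CPM in controls, with control 5 the highest, and from 2197 to 6912 CPM in treated tumors. Of the 7 fibroblast genes, 4 had a positive log2 fold change and 0 were without overlap, where 17.2% of all genes were in either direction. The part of fibroblasts in the levels of Lif and Il6 was not tested.

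Il6st (ENSMUSG00000021756, chromosome 13, 112464070 to 112510086) was the member with the lowest relative spread among controls after Stat3. Its levels were 348, 307 and 322 CPM (controls 5, 6 and 7) against 254, 270 and 174 CPM (treated tumors 1, 2 and 5). All treated tumors were below all controls, and the log2 fold change was -0.48 with a standard error of 0.28 (edgeR, adjusted p = 0.389). The two-sided exact permutation test gave p = 0.1, the smallest possible. This separation depended on scaling. With library totals alone the log2 fold change was 0.02 and the groups overlapped, while the median of all genes moved from 0.02 to 0.51. The groups also overlapped with upper quartile scaling. Summed endothelial markers were 137, 283 and 319 CPM (controls 5, 6 and 7) against 121, 132 and 93.5 CPM (treated tumors 1, 2 and 5). Among controls, these markers were lowest in control 5, where Il6st was highest. Of their 5 genes, 5 had a negative log2 fold change and 4 were without overlap, all lower in treated tumors (8.31% of all genes). Their part in the level of Il6st was not tested.

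Il6ra (chromosome 3, 89864059 to 89913196), the chain that binds IL-6 itself and that hepatocytes express strongly, split the controls. It measured 31.2, 92.5 and 87.5 CPM (controls 5, 6 and 7) against 28.6, 40.5 and 44.0 CPM (treated tumors 1, 2 and 5). Control 5 lay inside the treated range, and controls 6 and 7 were above it. Its log2 fold change was -0.90 with a standard error of 0.44 (edgeR, adjusted p = 0.341), and -0.11 (standard error 0.29) with the mean of the hepatocyte genes as a covariate. Other genes share 2.29% of the 50-base stretches of Il6ra, and exons of Gm42809 overlap it on the opposite strand over 242 bases. Whether counting used strand is not given in the sources used here, so these reads cannot be told apart.

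Osmr (chromosome 15, 6813577 to 6874969), the receptor chain for oncostatin M, varied most among treated tumors. It measured 34.3, 25.7 and 13.7 CPM (controls 5, 6 and 7) against 48.2, 107.6 and 29.3 CPM (treated tumors 1, 2 and 5). Tumor 5 lay below control 5, so that the groups overlapped. A log2 fold change of 1.33 with a standard error of 0.57 (edgeR, adjusted p = 0.298) became 0.66 when treated tumor 2 was left out.

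Stat3 (chromosome 11, 100885098 to 100939540) had the lowest relative spread of all members among controls. Its levels were 164, 161 and 155 CPM (controls 5, 6 and 7) against 173, 199 and 154 CPM (treated tumors 1, 2 and 5). The groups overlapped, and the log2 fold change of 0.13 had a standard error of 0.22. Stat5a shares 72 exonic bases with Stat3 on the opposite strand. Jak2 (chromosome 19, 29251828 to 29313080) measured between 51.7 and 64.6 CPM in controls and 55.6, 100.8 and 46.1 CPM (treated tumors 1, 2 and 5), a log2 fold change of 0.23 with a standard error of 0.33, which was -0.18 without tumor 2.

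Socs3 (ENSMUSG00000053113, chromosome 11, 117966079 to 117970047) encodes the inhibitor that binds gp130 and JAK kinases, and its transcription is a standard readout of STAT3 activity. Cish encodes a related protein that is best known as a STAT5 target. Both genes carry the palindromic STAT motif TTCNNNGAA near their start, and the stretches that hold it are shown because these are the feedback genes of the set, with the motif in capitals and the gene's own strand read 5′ to 3′.
Socs3, RefSeq promoter on GRCm38.p6, chr11:117969501-117969530, minus strand: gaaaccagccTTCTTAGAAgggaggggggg
Cish, RefSeq promoter on GRCm38.p6, chr9:107296654-107296683, plus strand: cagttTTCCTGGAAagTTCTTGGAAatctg
The Socs3 match begins 154 bases before the RefSeq start of transcription. In GENCODE it lies within the span of this gene, whose start is farther upstream, but outside its exons. Both matches of Cish lie at or after the start, at positions 1 and 12, in an exon. Within windows from 250 bases before to 50 after the start, read on both strands, 1 or more matches occur in 8.30% of 32851 promoters and 2 or more in 0.457%. Of the 9 members with a RefSeq promoter, the other 7 had 0 matches, and Osm had no entry. A match is a description of letters, and no match says only that these letters are not in this window.

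Socs3 measured 63.5, 23.2 and 13.5 CPM (controls 5, 6 and 7) against 81.5, 85.4 and 79.2 CPM (treated tumors 1, 2 and 5). All treated tumors were above all controls. The treated tumors lay close together, whereas the controls spread widely. The means were 33.4 ± 26.5 CPM (SD, n = 3) and 82.0 ± 3.13 CPM (SD, n = 3). For Socs3 the log2 fold change was 1.29 with a standard error of 0.56, and the adjusted p was 0.303 in edgeR and 0.173 in DESeq2. The two-sided exact permutation test gave p = 0.1, the smallest possible. Without control 5 the log2 fold change of Socs3 was 2.16 with a standard error of 0.26 (edgeR, adjusted p = 0.000787), and without controls 6 and 7 in turn it was 1.09 and 0.92. Over all alternatives its adjusted p, from the tool of each, ranged from 0.000787 to 0.656.

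Because scaling differs between these libraries, Socs3 was also set against Stat3 within each library, a ratio that no library scaling can change and that was chosen after the values were seen. There were 0.388, 0.144 and 0.0866 Socs3 counts per Stat3 count in controls 5, 6 and 7, and 0.472, 0.429 and 0.513 in treated tumors 1, 2 and 5. The ratio was higher in 3 of 3 treated tumors than in every control, by 1.47 on the log2 scale (exact permutation test, two-sided, p = 0.1 and, over the 4 ratios compared, adjusted p = 0.4). The ratio of Cish to Stat3 counts overlapped between the groups, as control 5 had 0.0528 and treated tumors had between 0.0374 and 0.0489. The ratio of Il6ra to Il6st counts overlapped between the groups, with 0.0898, 0.302 and 0.272 in controls and 0.113, 0.150 and 0.253 in treated tumors. The ratio of Osm to Osmr counts also overlapped, at 0.0614, 0.0264 and 0.0394 against 0.0656, 0.0492 and 0.172. These ratios compare counts of genes of different length and carry meaning only between libraries.

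Cish (chromosome 9, 107296026 to 107302784) measured 8.64, 4.07 and 2.15 CPM (controls 5, 6 and 7) against 8.45, 8.62 and 5.78 CPM (treated tumors 1, 2 and 5). Control 5 was the highest of all libraries, and the groups overlapped. A log2 fold change of 0.61 had a standard error of 0.53 (edgeR, adjusted p = 0.536). Exons of Gm17041 and Gm17040 overlap Cish on the opposite strand over 479 and 261 bases, and 9.35% of its stretches of 50 bases also occur in other genes, so that its counts are uncertain.

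**Figure D2:**
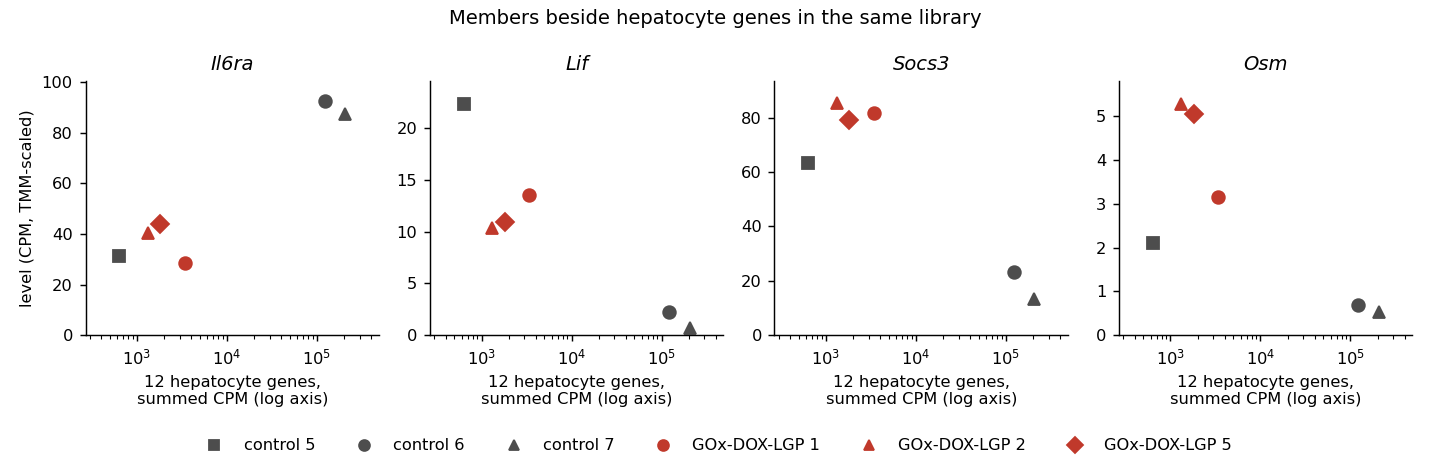
Level of 4 members in CPM (linear y axes) against the summed CPM of 12 hepatocyte genes (log x axis) in each library, controls in gray and treated tumors in red. Controls 6 and 7 sit at the right with high Il6ra and low Lif, Socs3 and Osm, and control 5 sits at the left beside the treated tumors.

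The same 2 controls held high hepatocyte RNA and low levels of Lif, Socs3, Osm and Cish. All 12 hepatocyte genes had a negative log2 fold change, with a median of -5.68, and 0 of them were without overlap, since control 5 did not stand above all treated tumors. With the mean of this list as a covariate, the log2 fold change was 1.45 (standard error 0.40) for Osm, 0.79 (standard error 0.24) for Socs3, -0.54 (standard error 0.24) for Il6st, 0.17 (standard error 0.37) for Cish and 0.06 (standard error 0.43) for Lif. In that fit 2 members, Osm and Socs3, had an unadjusted p under 0.05, where the background was 7.48%, and 0 had an adjusted p under 0.05 (edgeR). Only control 5 was near the treated tumors in hepatocyte RNA, so the treatment term of the covariate fit rests largely on that single control. This limit holds for every value given from the covariate fit. Without control 5, 6 of 10 members had an adjusted p under 0.05 from edgeR, 5 with higher levels in treated tumors (22.3% of all genes) and 1 with lower levels (24.1%), while 46.5% of all genes passed in either direction. The 2 controls left in that fit are those with high hepatocyte RNA, so that treatment and liver content cannot be told apart there. For Il6, these controls had 0 counts, and its mean in treated tumors, 0.846 CPM, was 2.62-fold the limit of 0.323 CPM for control 7. Control 5, at 0.877 CPM, was above that mean.

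**Figure D3:**
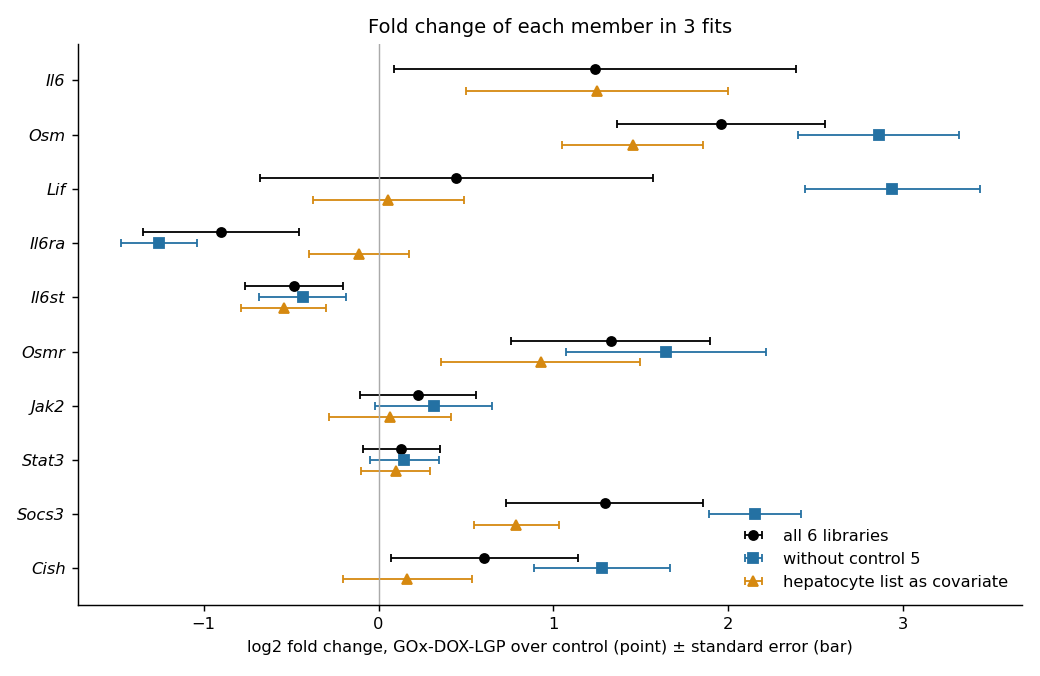
Log2 fold change of each member, GOx-DOX-LGP over control (points), with its standard error (bars), from the fit of all 6 libraries (black), without control 5 (blue) and with the hepatocyte list as a covariate (orange). Socs3 moves between 0.79 and 2.16 and Osm between 1.45 and 2.86, and no fold is drawn for Il6 without control 5 because the remaining controls had 0 counts.

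Levels of different genes were compared per kilobase of exon, with the exons of all annotated transcripts of a gene joined. This length was 2891 bases for Socs3, 11099 for Il6st and 9527 for Stat3. Before division by length, the treated means were 82.0 CPM for Socs3, 233 CPM for Il6st and 175 CPM for Stat3. The order between genes thus depends on the length chosen, and lengths of single transcripts were not tried. In treated tumors Socs3 had the highest level of the 10 genes, 28.4 ± 1.08 CPM per kilobase (SD, n = 3), and its lowest library was above the highest of Il6st (21.0 ± 4.66, SD, n = 3). Il6st and Stat3 (18.4 ± 2.36 CPM per kilobase, SD, n = 3) overlapped, as did Stat3 and Jak2 (13.4 ± 5.81, SD, n = 3). Within libraries, Stat3 was above Jak2 in 3 of 3 treated tumors. Osmr, Il6ra, Lif, Osm and Cish followed between 5.10 and 1.19 CPM per kilobase. Il6 was the lowest at 0.349 CPM per kilobase. Osmr and Il6ra were the other neighbors in this order that overlapped.

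In controls the order was led by Il6st (29.3 ± 1.87 CPM per kilobase, SD, n = 3) and Stat3 (16.8 ± 0.453, SD, n = 3), which did not overlap. Socs3 followed with 22.0, 8.04 and 4.65 CPM per kilobase in controls 5, 6 and 7, so that it was above Stat3 in control 5 and below Jak2 in controls 6 and 7. Below Socs3, the only neighbors whose ranges were apart were Il6ra and Osmr. Within libraries, Jak2 was above Il6ra, Cish above Osm and Osm above Il6 in 3 of 3 controls. The order of Lif and Cish differed between libraries, with Lif above Cish in control 5 and below it in controls 6 and 7.

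**Figure D4:**
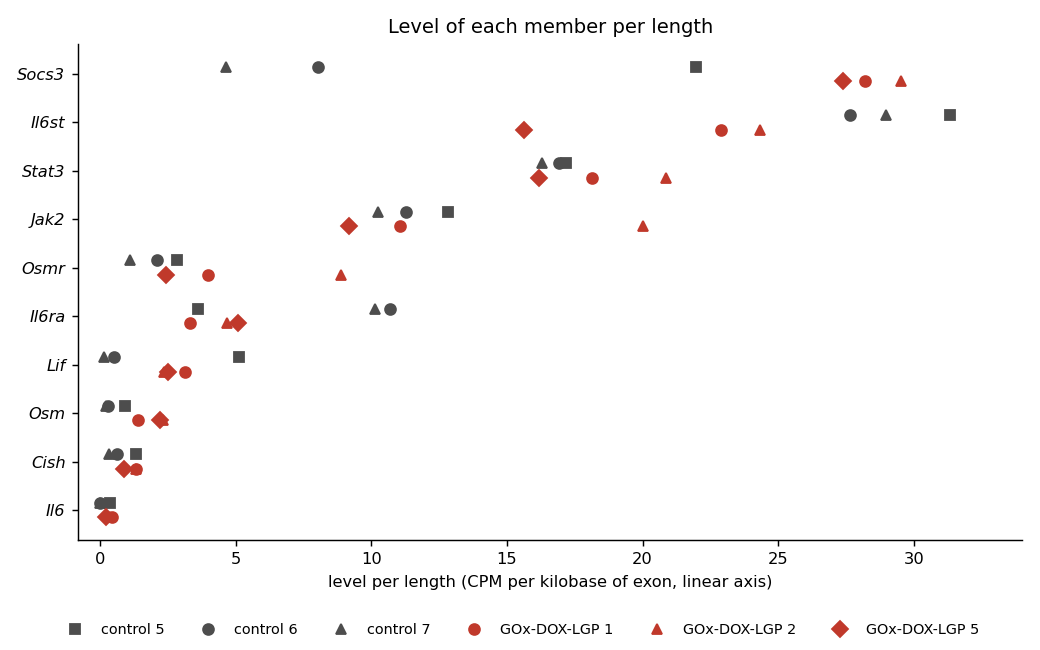
Level of each member in CPM per kilobase of exon (linear axis), with controls in gray above and treated tumors in red below for each gene, ordered by the mean of the treated tumors. Socs3 leads in treated tumors between 27.4 and 29.5, whereas its controls spread from 4.65 to 22.0.

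The other genes of the pathway were taken from fixed lists of 38 further ligands, receptors, kinases, STATs and inhibitors, of which 35 passed the filter (Cntf, Il31 and Il31ra did not), and of 26 STAT3 targets, all of which passed. With edgeR's quasi-likelihood test 0 of these 61 genes passed an adjusted p of 0.05, and 13 passed unadjusted (17.5% of all genes did), 2 with higher levels (2.87% of all genes) and 11 with lower levels (14.6%), 9 of them acute phase genes. DESeq2 called 8 of the 57 it gave an adjusted p for, all lower in treated tumors, where it called 9.27% of all genes as lower and 10.2% in either direction. Without overlap were 10 genes with higher levels (8.87% of all genes) and 3 with lower levels (8.31%).

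Of the 6 other ligands kept, 5 had a positive log2 fold change, with a median of 1.16 where all genes had 0.02. Only 1 of the 6 was without overlap, higher in treated tumors (8.87% of all genes). Il11, another gp130 ligand, had the highest value (1.62, standard error 1.02). Il11 measured 4.43, 0.424 and 0.215 CPM (controls 5, 6 and 7) against levels between 4.63 and 7.12 CPM in treated tumors. The groups thus narrowly did not overlap. At the low end were Ctf1 (-1.12), cardiotrophin 1, and Ebi3 (0.55).

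Among 6 receptors and sheddases kept, 3 were positive and 3 negative. Lifr, the receptor chain for LIF, had a log2 fold change of -4.31 (standard error 1.22). It measured 19.3, 414 and 791 CPM (controls 5, 6 and 7) against levels between 16.1 and 25.3 CPM in treated tumors, a split of controls like that of Il6ra. Cntfr followed at -1.47 (standard error 0.80), and Adam10 (0.53) and Il27ra (0.27) were the highest.

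Of 9 other JAKs and STATs, 7 had a positive log2 fold change, with a median of 0.16. Stat4, a STAT of T and NK cells, had a log2 fold change of 1.16 (standard error 0.42). It measured 2.63, 1.19 and 1.29 CPM (controls 5, 6 and 7) against 3.41, 3.58 and 4.68 CPM (treated tumors 1, 2 and 5), and the groups did not overlap. Stat5b (-0.61) and Tyk2 (-0.16) were the lowest.

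The 14 other inhibitors had a median log2 fold change of 0.14, with 8 positive and 6 negative. Socs1, the inhibitor best known from interferon signaling, was the highest at 1.67 (standard error 0.95), with 3.95, 0.594 and 0.215 CPM (controls 5, 6 and 7) against levels between 3.72 and 7.23 CPM in treated tumors. Socs5 was next at 0.72 (standard error 0.72). Socs2, an inhibitor of growth hormone signaling, was the lowest at -1.44 (standard error 0.44). It measured 28.1, 78.6 and 82.8 CPM (controls 5, 6 and 7) against 27.7, 19.7 and 22.4 CPM (treated tumors 1, 2 and 5), so that the groups narrowly did not overlap. Socs7 (-0.59) was the next lowest. Members of the SOCS family thus lay on both sides of zero.

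The lists of STAT3 targets differed in direction. Of 14 targets known from many tissues, 11 had a positive log2 fold change, with a median of 0.68. Without overlap were 4 of them, all higher in treated tumors (8.87% of all genes). Timp1, a protease inhibitor, was the highest at 2.06 (standard error 1.31), with 105, 8.06 and 1.94 CPM (controls 5, 6 and 7) against levels between 137 and 190 CPM in treated tumors. Birc5, a survival and mitosis gene, followed at 1.16 (standard error 0.79), and Bcl3 (-0.55) and Icam1 (-0.32) were the lowest. Of 12 acute phase genes, which hepatocytes make, 12 had a negative log2 fold change, with a median of -5.24. The lowest were Saa2 (-7.86, standard error 3.22) and Saa1 (-7.39, standard error 2.72), the serum amyloid A genes. Their paralogous sequences leave these counts uncertain. Saa1 measured 0.263, 1724 and 37.6 CPM (controls 5, 6 and 7) against levels between 2.69 and 4.25 CPM in treated tumors, with control 6 far above the rest. Without control 6 the log2 fold change was -2.43 for Saa1 and -0.88 for Saa2. Lcn2 (-0.27) and Lbp (-2.77) were the highest of this list. With the hepatocyte covariate the medians were 0.32 for both lists. Scaling by library totals, which moved the median of all genes to 0.51, turned the log2 fold changes of Stat5b (0.03), Tyk2 (0.38), Socs7 (0.07), Bcl3 (0.11), Icam1 (0.05) and Lcn2 (0.35) positive, whereas those of Socs2 (-0.72), Lifr (-3.38) and the acute phase median (-4.33) stayed negative.

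**Figure D5:**
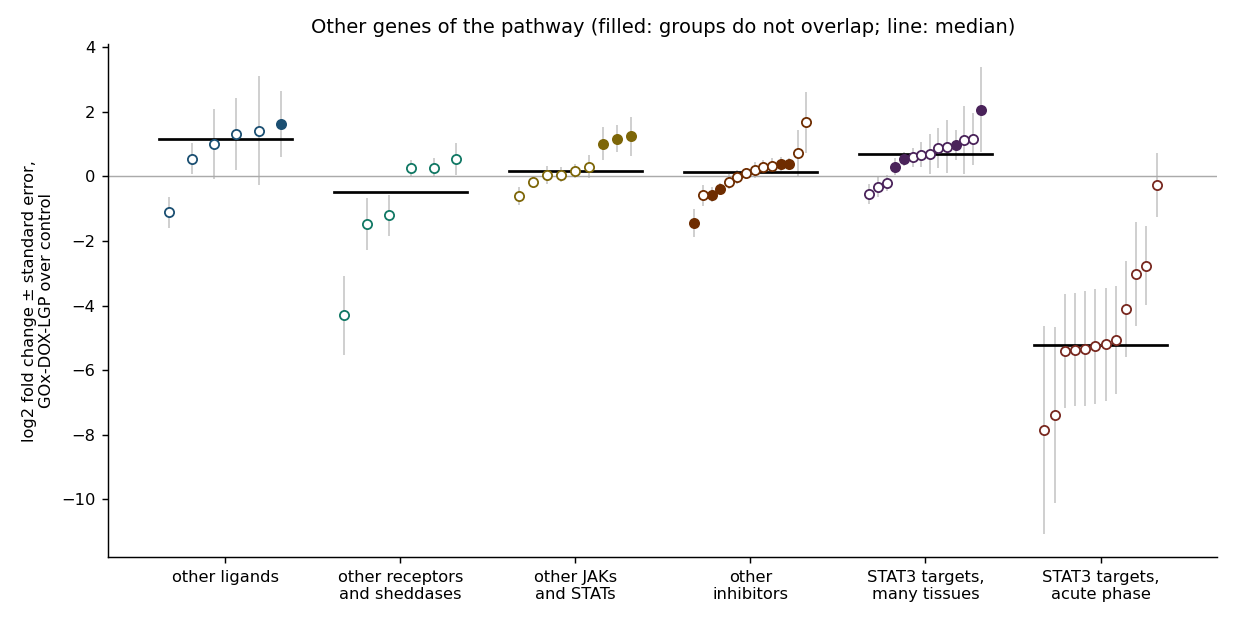
Log2 fold change (GOx-DOX-LGP over control) with its standard error for each kept gene of 6 lists, filled where the groups do not overlap, with the list's median as a line. The acute phase genes lie far below 0 with a median of -5.24 and overlapping groups, while the medians of the other lists lie between -0.48 and 1.16.

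For each member, the genes with the most similar pattern were found by the root mean square difference of log2 CPM over the 6 libraries after centering each gene. For Socs3 these were Gmds (0.083) and Aldoa (0.10), and for Osm Il2rg (0.20) and Cd6 (0.20). They were Tmem151a (0.17) and Ttc9 (0.21) for Il6, and Csgalnact1 (0.14) and Egr2 (0.17) for Lif. For the receptors they were Zfand2b (0.058) and Dennd2d (0.080) for Il6ra, E430024I08Rik (0.043) and Zfp738 (0.089) for Il6st, and Ptges (0.19) and Fhdc1 (0.24) for Osmr. They were Rac1 (0.031) and Rragc (0.045) for Stat3, Gm9770 (0.088) and Fbxo32 (0.096) for Jak2, and Eif5a2 (0.078) and Asap2 (0.089) for Cish. Aldoa, the pattern nearest but one to Socs3, measured 677, 251 and 153 CPM (controls 5, 6 and 7) against levels between 1008 and 1027 CPM in treated tumors.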

How the data were processed

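The authors deposited raw counts per gene and library, not pooled, and a second table of the same counts scaled per library (a signal scale). The methods name TopHat and HTSeq, whereas the submitters' processing notes name Trimmomatic 0.38, HISAT2 2.1.0 and featureCounts 2.0.0. The genome build and annotation are not given in the sources used here. Gene positions and exon lengths came from GENCODE M21 on GRCm38, which matched all 55536 identifiers, and promoter sequences from RefSeq (GRCm38.p6).

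Software comprised edgeR 4.0.16, DESeq2 1.42.0 and limma 3.58.1 under R 4.3.3, run on the raw table. Genes were filtered with filterByExpr (15374 kept), scaled with TMM and tested over all 6 libraries with the quasi-likelihood test, with Benjamini-Hochberg adjustment over all genes and a threshold of 0.05. Standard errors are the log2 fold change divided by the root of F. Log2 CPM used a prior count of 2. TMM factors lay between 0.569 (control 7) and 1.24 (control 5). The steps were tested on simulated counts. These were drawn from a common mean profile apart from added changes, with no library set apart like control 5. The simulation thus does not cover that feature of the data. Depth was 15529940 to 18401178 counts per library.

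The members, the gene lists and the tests were chosen with earlier results of these data known. Named genes were all members, the highest 2 and lowest 2 of each other list, the 2 nearest patterns per member, and markers of cell content, except that 2 genes this rule names are not reported here. Genes named for missing the filter, and the ratios within libraries, were chosen after their values were seen. The alternatives were DESeq2, limma voom, 3 other scalings, no filter, the hepatocyte covariate, the deposited values, another prior count and leaving out each library.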

Additional observations from a re-analysis of the deposited data

How the results depend on the processing

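Of 130 refits of the members' log2 fold changes, 120 kept their direction and, where an adjusted p was given, their side of the threshold. A further 7 passed the threshold and 3 reversed: Lif without control 7 (-0.092), Il6st with library totals (0.017) and Jak2 without GOx-DOX-LGP tumor 2 (-0.18). Leaving out a library moved Lif between -0.092 and 2.94 and Jak2 between -0.18 and 0.46. The cause of these was not tested. DESeq2 gave 1498 genes, 1 member and 8 of the other pathway genes (57 with an adjusted p) with an adjusted p under 0.05 in place of 0. Leaving out each library gave between 0 and 7142 genes, 0 and 6 members and 0 and 39 other genes, with counts above 0 only without control 5. The count of members with an unadjusted p under 0.05 was 1 (17.5% of all genes), and 3 with DESeq2 (22.6%), 2 with limma voom (7.37%), 2 with the upper quartile (16.0%), 3 without the filter (11.3%) and 2 with the hepatocyte covariate (7.48%). It lay between 0 without control 6 (8.32%) and 7 without control 5 (54.9%) when a library was left out, and was 2 without GOx-DOX-LGP tumor 5 (4.18%). The count of members without overlap was 3 (17.2% of all genes), and between 3 and 8 when a library was left out, with 8 without control 5 (71.9%) and 7 without GOx-DOX-LGP tumor 5 (23.1%). Of the other pathway genes, 13 had an unadjusted p under 0.05, and 6 with limma voom, 8 with the hepatocyte covariate and between 1 without GOx-DOX-LGP tumor 5 and 44 without control 5, beside the same shares of all genes. That count was 5 without control 6, 2 without GOx-DOX-LGP tumor 1 (7.45%) and 2 without tumor 2 (6.26%). The deposited values and a prior count of 0.5 moved no member's level difference by more than the spread between replicates. For Il6, whose controls ranged from 0 to 20 counts, the mean log2 CPM difference still moved from 1.97 to 3.20 with a prior count of 0.5. DESeq2 gave no adjusted p for Il6 and Lif. No paired analysis was possible because the groups share only the number 5. Depth limits Il6 most, with at most 22 counts in a library.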
